A study of Arabidopsis thaliana with 12 samples.

Results

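The plastid-encoded genes of Arabidopsis were followed in rosette leaves of 4 genotypes. A gene was included when a probe set of the array named it alone and the reference gene table placed it on the plastid chromosome. This gave 69 genes with 1 probe set each, out of 22746 probe sets tested and 85 protein-coding plastid genes in the table. A further 8 probe sets name both copies of a gene of the inverted repeat and fall outside that rule. The genes were grouped by the complex that their products join: 5 of photosystem I, 15 of photosystem II, 6 of the cytochrome b6f complex, 6 of the ATP synthase, 10 of the NADH dehydrogenase-like (NDH) complex, rbcL of Rubisco, 15 ribosomal proteins (8 of the small and 7 of the large subunit), 4 of the RNA polymerase and 7 with other roles.

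The study compared 2 lines that overexpress TaFLS, named OE1 and OE2, and the mutant fls1-3 with the wild type Col-0, on 3 Affymetrix arrays per genotype. FLS stands for flavonol synthase, the enzyme of the last step of flavonol synthesis. The labels describe flavonols of leaves and guard cells as decreased in OE1 but increased in OE2 and in fls1-3, so that the 2 overexpression lines carry opposite descriptions and the mutant carries the one of OE2. All plants were 6 weeks old, raised in soil at 22 °C and 60% humidity with days of 16 h, and no treatment separated the groups. The sources used here give neither the promoter that drives TaFLS nor whether an array stands for 1 plant or a pool. The p-values therefore cover only the spread among the 12 arrays. Values are log2 signals that the authors computed with MAS5 and scaled to a common trimmed mean on each array.

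The plastid chromosome encodes a core of the photosynthetic complexes together with part of the machinery that expresses it, and nuclear genes supply the remaining subunits. Its genes are arranged in operons and are transcribed by a plastid-encoded polymerase, whose core subunits are the rpo gene products, and by nuclear-encoded polymerases of the phage type. The long primary transcripts are spliced, edited and cut into many smaller RNAs, so neighbouring genes of an operon can differ in transcript level. Plastid mRNAs mostly lack stable poly(A) tails, whereas the standard Affymetrix labelling named in the labels primes from such tails.

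The probe sets of these genes were among the strongest of the array. The median of their mean signals was 11.7 on the log2 scale, at percentile 95.8 of all probe sets, and 62 of the 69 had a mean above the median of every array, which ranged from 7.09 to 7.55. The strongest signals came from atpB, atpE and ndhI, which encode 2 ATP synthase subunits and 1 NDH subunit, and the weakest from ndhF, rps14 and rpoB. Signals of different probe sets depend on their probes and were not compared as transcript levels. Together the 69 probe sets held 2.84 ± 0.43% of the summed linear signal in OE1, 2.48 ± 0.05% in OE2, 2.42 ± 0.35% in fls1-3 and 2.59 ± 0.13% in Col-0 (SD, n = 3 each), with overlapping groups. In bulk leaf RNA, fewer plastids or cells of a type and less RNA in each cannot be told apart. The labelled tissue could be checked with few markers. RCA, the Rubisco activase of green leaves, had mean signals of 14.7 to 15.0 in the 4 genotypes. The guard cell marker FAMA had 6.20 to 6.62, and the flower and pollen marker TUA1 had 9.31 to 9.60. The root marker PYK10 was uneven, with 9.14 in OE1, 10.59 in OE2, 7.08 in fls1-3 and 8.24 in Col-0, and no difference called.

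Differences between genotypes were small for most of these genes. The range of the 4 group means was under 0.5 on the log2 scale for 41 of the 69 genes and over 1 for 6, namely psaC, atpH, ndhF, rpl20, rps15 and ndhE. A limma F test over the 4 genotypes called 1 gene, psaC (adjusted p = 0.00305), where 1.03% of all probe sets were called. In the map of all 69 genes, the high values stand in OE1 and, within OE1 and fls1-3, in single arrays.

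**Figure D1:**
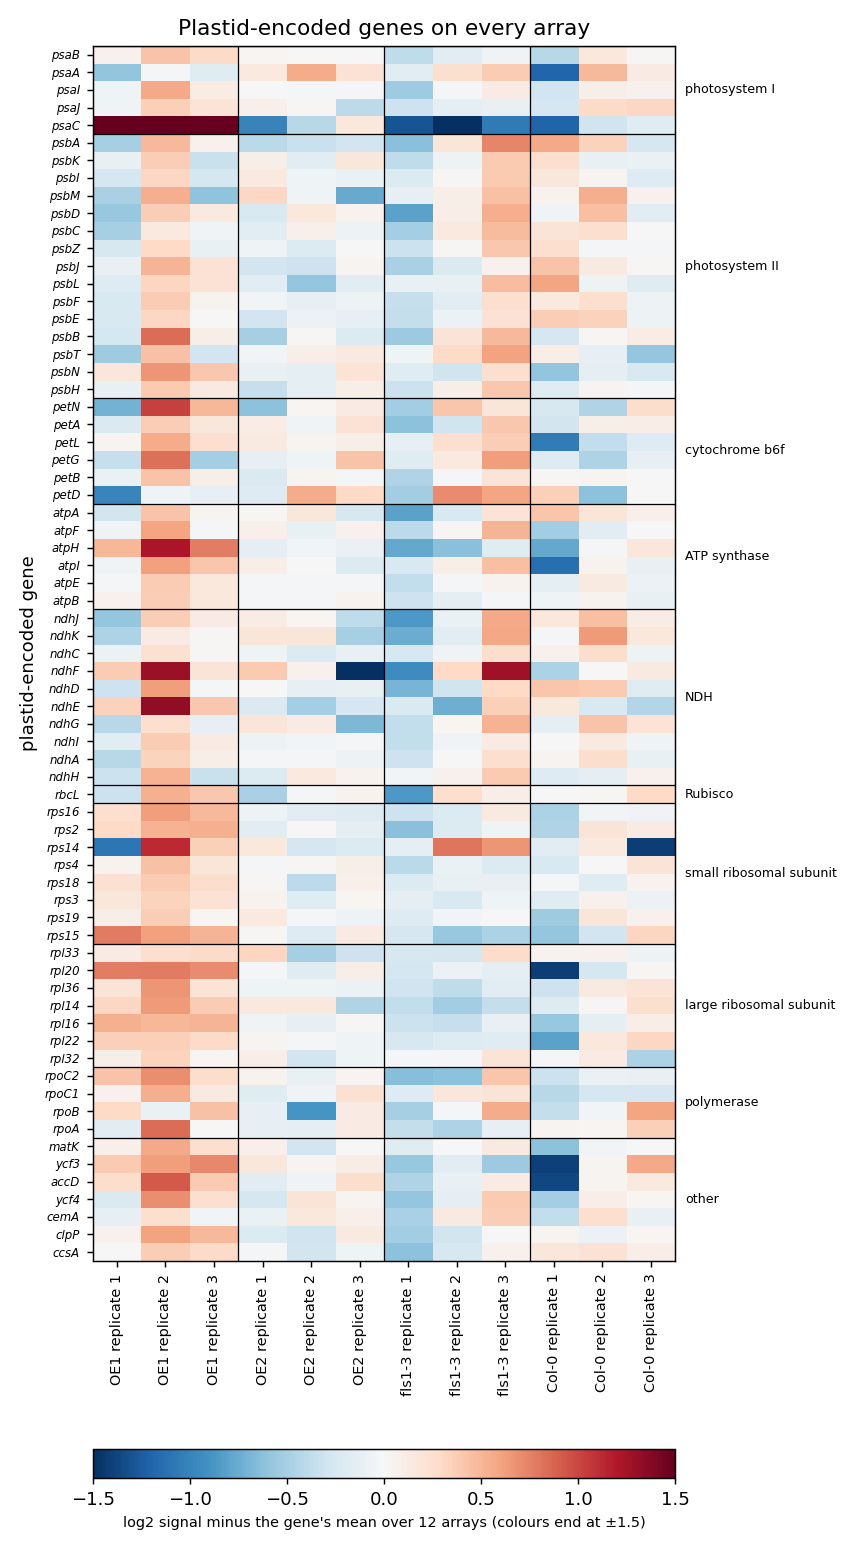
Signal of each of the 69 plastid-encoded genes (rows, by complex) on each of the 12 arrays (columns, by genotype), as the log2 difference from the gene's mean over all arrays; red is above and blue below that mean, and colours end at 1.5. The row of psaC is red on the 3 arrays of OE1, and the columns of OE1 replicate 2 and fls1-3 replicate 3 are red in most rows.

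The gene with the largest difference was psaC. It encodes the small iron-sulphur subunit on the stromal side of photosystem I, which passes electrons towards ferredoxin. Its signals were 9.05, 10.17 and 9.53 in OE1, 6.28, 6.87 and 7.44 in OE2, 5.99, 5.69 and 6.23 in fls1-3, and 6.09, 6.99 and 7.11 in Col-0. Every OE1 array lay above every other array, and outside OE1 each value was below the median of its own array. The psaC signal of OE1 exceeded that of OE2 by 2.72 ± 0.39 on the log2 scale (SE, 6.58-fold; limma, adjusted p = 0.0469), and the fls1-3 minus OE1 difference was -3.61 ± 0.39 (12.2-fold lower in fls1-3; adjusted p = 0.00209). Against Col-0 the difference of OE1 was as large, 2.86 ± 0.39 (7.24-fold), but its adjusted p of 0.0860 missed the threshold of 0.05. With 64 added to the linear signals, which weighs weak signals less, that difference was 2.28, and the fls1-3 minus OE1 difference was -2.71 with its call kept (adjusted p = 0.0021). The call between fls1-3 and OE1 was kept when each array was left out in turn, with adjusted p between 0.00105 and 0.0167. The call between OE1 and OE2 was lost in 10 of those 12 fits and kept only without Col-0 replicate 1 (adjusted p = 0.0262) or Col-0 replicate 3 (adjusted p = 0.0459), while leaving out Col-0 replicate 3 brought the call against Col-0 (adjusted p = 0.0424).

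The other genes of photosystem I did not share this pattern. The 2 large reaction centre proteins are encoded by psaA and psaB, and the small membrane subunits by psaI and psaJ. In OE1 minus Col-0 the differences were -0.07 for psaA, 0.34 for psaB, 0.25 for psaI and 0.05 for psaJ, none of them called. psaA had its lowest mean in OE1, with signals of 7.90, 8.48 and 8.30 in OE1 against 8.64, 9.05 and 8.70 in OE2, and these 2 groups did not overlap. Without Col-0 replicate 1 the OE1 minus Col-0 difference of psaA was -0.57. Its operon neighbour psaB had a higher mean in OE1 than in OE2, by 0.25. psaC lies in the NDH operon between ndhE and ndhD. Its neighbours differed between OE1 and Col-0 by 0.86 for ndhE, -0.11 for ndhD, -0.26 for ndhG, 0.09 for ndhI, -0.07 for ndhA and 0.05 for ndhH. On the plot along the gene order, psaC thus stands as a single peak with ndhE as a shoulder on one side.

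**Figure D2:**
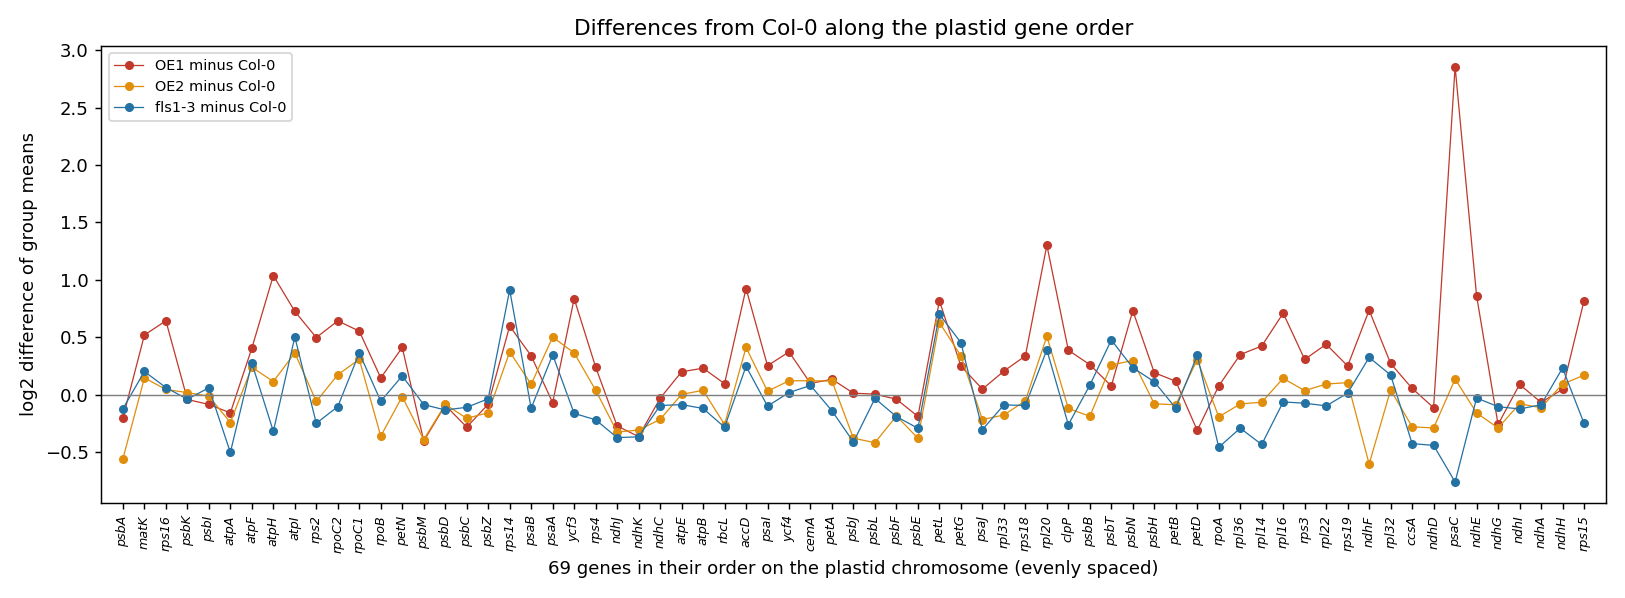
Log2 difference of each line from Col-0 (vertical axis) for the 69 genes in their order on the plastid chromosome (horizontal axis, evenly spaced); each point is a difference of means of 3 arrays, and the 3 series share the Col-0 arrays. The OE1 series peaks at psaC (2.86) and rpl20 (1.302), and its neighbours of psaC stay at 0.86 (ndhE) and -0.11 (ndhD).

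Genes of the plastid ribosome had one direction in OE1. All 15 had a higher mean in OE1 than in Col-0, by a median of 0.42 on the log2 scale and a range from 0.21 for rpl33 to 1.302 for rpl20. For 10 of them OE1 did not overlap with Col-0, in rpl36 by a very narrow margin (13.0902 against 13.0898). None was called by limma (0 of 15), and 6 had an unadjusted p under 0.05. Over all 69 genes, the OE1 minus Col-0 median was 0.23 with 51 higher and 18 lower. It was 0.18 with quantile normalization (47 higher and 22 lower), 0.07 with arrays centred on their medians and 0.04 with arrays centred on the plastid-encoded genes (38 higher and 31 lower in both). The last of these scalings sets the median of these genes to 0 on every array, so it removes a shift that most of them share. Over all probe sets the median was 0.11, and over the 4894 probe sets at least as strong as the lower quartile of these genes it was 0.01. Of the 69 genes 0 were called in that comparison, as of all probe sets (0%), and 17 had an unadjusted p under 0.05, all of them higher in OE1 (background 10.7%, and 6.11% for higher alone). OE1 lay wholly above Col-0 for 22 genes and wholly below it for 0, against 8.97% and 5.33% of all probe sets.

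The ribosomal genes held this direction under every scaling tried. With quantile normalization, with arrays centred on their medians, and with arrays centred on the median of the plastid-encoded genes, 15 of 15 stayed above Col-0 in OE1, with medians of 0.35, 0.26 and 0.23. Without OE1 replicate 2 the count was 15 of 15 with a median of 0.29, and without Col-0 replicate 1 it was 15 of 15 with a median of 0.32. Centring on array medians moved the median of all probe sets in OE1 minus Col-0 to -0.06. The direction against OE2 was 15 of 15 as deposited, with a median of 0.39, but 9 of 15 with arrays centred on the plastid-encoded genes.

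Among the ribosomal genes, the OE1 arrays lay close together in rpl20 and rpl16 (SD 0.03 and 0.02). In others they did not, with an SD of 0.26 in rpl36 and 1.12 in rps14. rpl20, which encodes a protein of the large subunit, had signals of 10.27, 10.28 and 10.22 in OE1, 9.48, 9.32 and 9.59 in OE2, 9.24, 9.42 and 9.37 in fls1-3, and 8.09, 9.23 and 9.53 in Col-0. OE1 lay above all other arrays, and Col-0 replicate 1 lay far below the rest of its group. The OE1 minus Col-0 difference of rpl20 was 1.302 ± 0.28 (SE, adjusted p = 0.305), and 0.87 without Col-0 replicate 1. rpl16, also of the large subunit, had 13.27, 13.23 and 13.23 in OE1, 12.68, 12.60 and 12.75 in OE2, 12.41, 12.38 and 12.62 in fls1-3, and 12.17, 12.60 and 12.83 in Col-0. rps15, of the small subunit, had 9.03, 8.88 and 8.77 in OE1, 8.28, 8.07 and 8.39 in OE2, 8.01, 7.69 and 7.79 in fls1-3, and 7.68, 7.97 and 8.58 in Col-0. For both genes each OE1 array exceeded all others, while OE2 and fls1-3 overlapped with Col-0.

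The same order appeared between fls1-3 and OE1. In that comparison 2 of the 69 genes passed the threshold, psaC and atpH, both lower in fls1-3, where 0.554% of all probe sets were called and 0.106% were called lower. The unadjusted p was under 0.05 for 20 genes, all lower in fls1-3 (background 15.7%, and 8.59% for lower alone), and 11 of these were ribosomal. The fls1-3 group lay wholly below OE1 for 20 genes and wholly above it for 0, against 11.8% and 8.89% of all probe sets. Of the 15 ribosomal genes, 14 were lower in fls1-3 (median -0.54), and rps14, 1 of the weakest probe sets, was higher by 0.31. With arrays centred on their medians 13 of the 15 were lower (median -0.41), and with arrays centred on the plastid-encoded genes 11 of 15 (median -0.21). The next in order of p after the 2 called genes were rps15 (-1.07, adjusted p = 0.0581), rpl16 (-0.77, adjusted p = 0.0698) and rpl14 (-0.86, adjusted p = 0.0745). This comparison and those with Col-0 or OE2 share arrays, so its values do not stand as separate evidence for OE1.

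**Figure D3:**
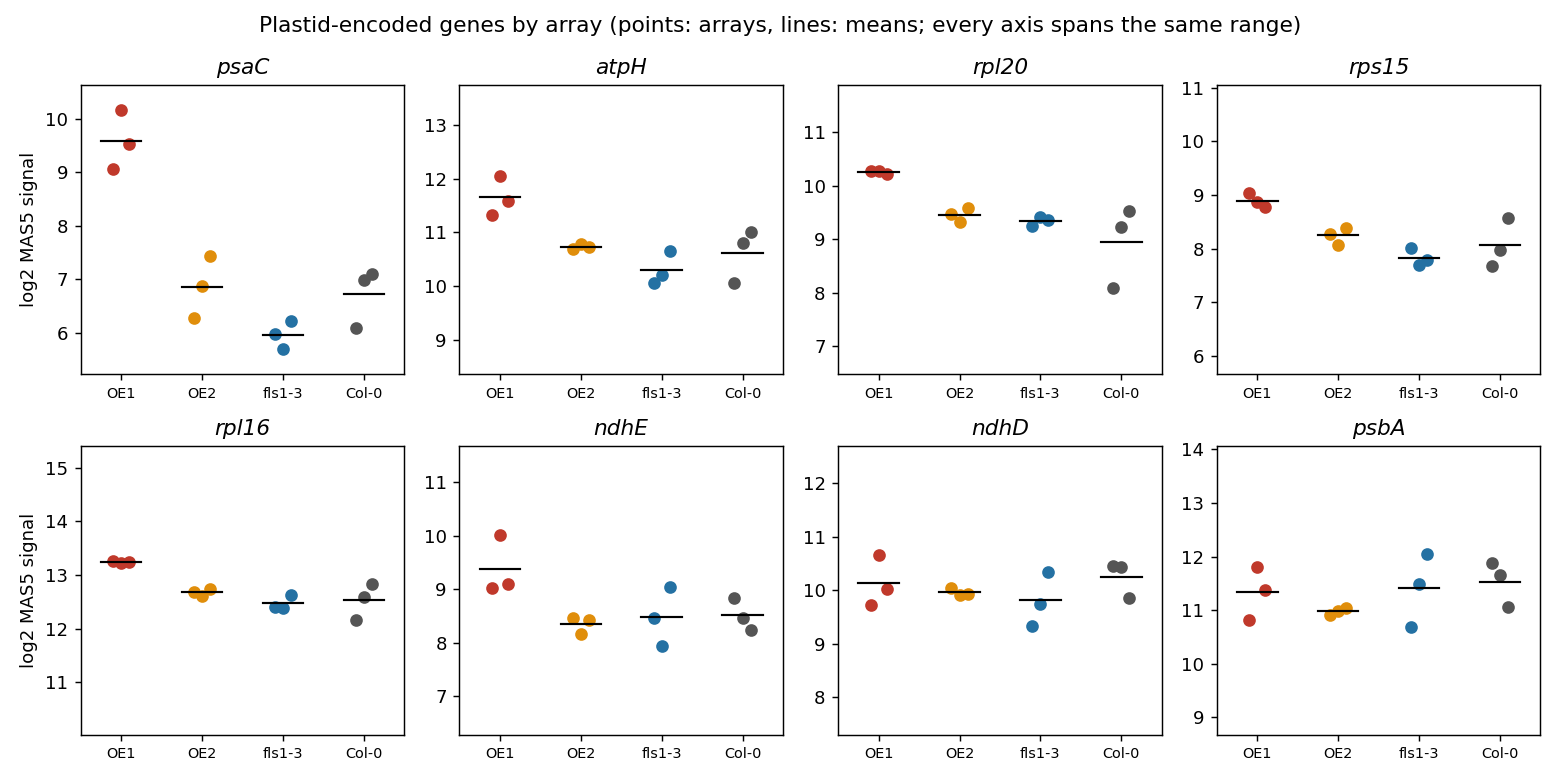
Log2 MAS5 signal (vertical axes, all spanning the same range) of 8 plastid-encoded genes in the 4 genotypes; points are arrays and lines are means of 3. The OE1 points of psaC, atpH, rpl20, rps15 and rpl16 lie above all other points, while those of ndhD and psbA lie among them.

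The second called gene, atpH, encodes the subunit that forms the membrane ring of the ATP synthase. Its signals were 11.33, 12.05 and 11.60 in OE1, 10.69, 10.79 and 10.73 in OE2, 10.06, 10.20 and 10.65 in fls1-3, and 10.06, 10.80 and 11.00 in Col-0. Every OE1 array exceeded all others, and fls1-3 overlapped with Col-0. The difference of fls1-3 from OE1 was -1.36 ± 0.25 (SE, 2.56-fold; limma, adjusted p = 0.0372). That call was kept in 2 of 12 fits with 1 array left out, those without Col-0 replicate 1 (adjusted p = 0.0086) and Col-0 replicate 3 (adjusted p = 0.0274), and was lost without any single one of the other arrays. OE1 minus Col-0 gave 1.04 (adjusted p = 0.345) and OE1 minus OE2 gave 0.92 (adjusted p = 0.273).

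The rest of the ATP synthase varied less. atpI, which encodes a membrane subunit next to the ring, differed by 0.73 between OE1 and Col-0, but by 0.36 without Col-0 replicate 1, which read 7.85 against 9.03 and 8.87 in the other Col-0 arrays. atpF, of the peripheral stalk, differed by 0.41, and by 0.26 without that array. The catalytic head and its link were nearer to 0, with 0.23 for atpB and 0.20 for atpE, and atpA was at -0.16. In fls1-3, atpA had the lowest difference from Col-0 among the genes of the complex (-0.50), and neither it nor any other of them was called there.

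The direction of photosystem II genes depended on the scaling in fls1-3, while in OE1 most were below Col-0 under every scaling. Of its 15 genes, 6 were higher and 9 lower in OE1 than in Col-0 (median -0.04), 3 and 12 in OE2 (median -0.18), and 5 and 10 in fls1-3 (median -0.04), none of them called. With arrays centred on their medians 3 were higher and 12 lower in OE1 (median -0.21), and likewise with arrays centred on the plastid-encoded genes (median -0.23). Without Col-0 replicate 1 the OE1 count was 8 higher and 7 lower. In fls1-3, quantile normalization gave 8 higher and 7 lower, and centring on the plastid-encoded genes gave 11 and 4. psbA, which encodes the D1 reaction centre protein, had signals of 10.81, 11.80 and 11.38 in OE1, 10.91, 10.99 and 11.03 in OE2, 10.69, 11.50 and 12.05 in fls1-3, and 11.88, 11.66 and 11.06 in Col-0. OE2 lay wholly below Col-0 (difference -0.56, adjusted p = 0.564), and every other pair of groups overlapped. The exception in OE1 was psbN, whose product is needed in tobacco to assemble photosystem II, with 10.33, 10.82 and 10.57 in OE1 against 9.56, 10.02 and 9.93 in Col-0 (difference 0.73, adjusted p = 0.362). psbN is transcribed from the strand opposite to its neighbours psbT and psbH, which differed by 0.08 and 0.19.

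The small psbE-psbF-psbL-psbJ operon, with the 2 cytochrome b559 subunits and 2 small membrane proteins, was lower in OE2 than in Col-0 for all 4 genes, by -0.38, -0.18, -0.42 and -0.38. psbE had 12.48, 12.68 and 12.65 in OE2 against 13.14, 13.11 and 12.69 in Col-0, so the groups did not overlap, at an adjusted p of 0.512. In fls1-3 the same 4 genes gave -0.29, -0.19, -0.03 and -0.41, and in OE1 -0.19, -0.04, 0.01 and 0.01. These 3 sets of values use the same Col-0 arrays. Without Col-0 replicate 1 the OE2 values were -0.30, -0.16, -0.18 and -0.26. Those of fls1-3 were then -0.21, -0.17, 0.21 and -0.30, and those of OE1 were -0.11, -0.02, 0.25 and 0.13.

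The NDH complex carries cyclic electron flow around photosystem I. Of its 10 measured genes, 4 were higher and 6 lower in OE1 than in Col-0 (median -0.05), 1 and 9 in OE2 (median -0.25), and 2 and 8 in fls1-3 (median -0.10), none of them called. For OE2 the count below Col-0 was 9, 10 and 7 of 10 under quantile normalization, centring on array medians and centring on the plastid-encoded genes, and for fls1-3 it was 7, 8 and 3 of 10. ndhE stood apart, with 9.02, 10.01 and 9.09 in OE1, 8.46, 8.17 and 8.43 in OE2, 8.47, 7.95 and 9.04 in fls1-3, and 8.84, 8.45 and 8.24 in Col-0. OE1 lay above OE2 and Col-0 but overlapped with fls1-3, and the difference of OE1 from OE2 was 1.02 (adjusted p = 0.319). The adjoining genes ndhC, ndhK and ndhJ were each below Col-0 in all 3 lines, by -0.03, -0.36 and -0.27 in OE1, by -0.21, -0.31 and -0.32 in OE2, and by -0.09, -0.37 and -0.37 in fls1-3. The wide range of group means of ndhF, 1.34, came from a weak signal in which 1 array of OE2 read 2.34 and the other two 5.35 and 5.02.

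**Figure D4:**
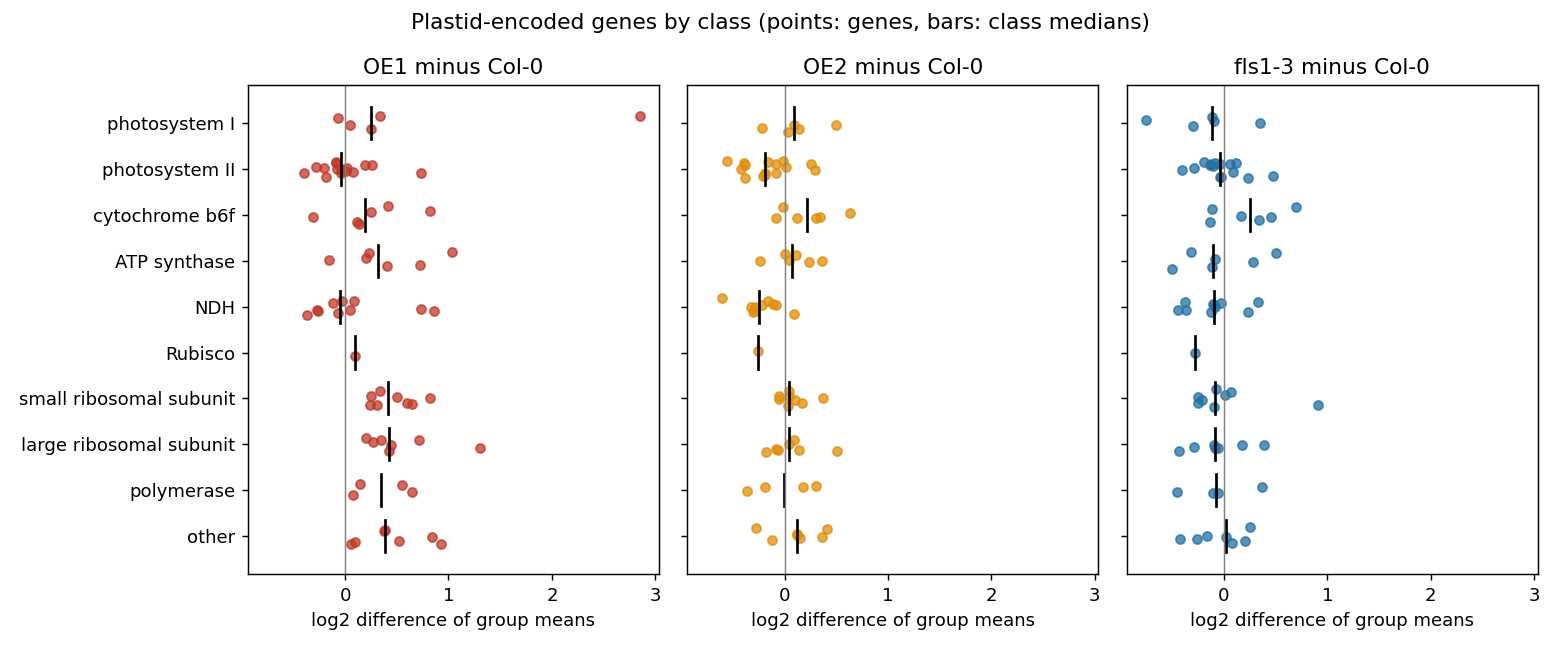
Log2 difference from Col-0 (horizontal axes) of each plastid-encoded gene (points) by complex (rows), in OE1, OE2 and fls1-3; vertical bars are class medians. Both ribosomal subunits lie wholly right of 0 in OE1 (medians 0.42 and 0.42) and lie around 0 in OE2 and fls1-3 on the deposited scale (14 of 15 above 0 in OE2 with arrays centred on the plastid-encoded genes), while photosystem II and NDH straddle 0 in each of the lines.

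In the cytochrome b6f complex, which links the photosystems, petL was the gene with the smallest p in the comparisons of OE2 and of fls1-3 with Col-0. It encodes a small subunit that stabilises the complex in tobacco. Its signals were 10.18, 10.69 and 10.38 in OE1, 10.27, 10.18 and 10.22 in OE2, 10.01, 10.39 and 10.50 in fls1-3, and 9.09, 9.77 and 9.93 in Col-0. All 9 arrays of the 3 lines lay above the Col-0 arrays. The differences were 0.82 in OE1 (adjusted p = 0.364), 0.63 in OE2 (adjusted p = 0.263) and 0.70 in fls1-3 (adjusted p = 0.199), all against the same Col-0 arrays, and without Col-0 replicate 1 those of OE2 and fls1-3 were 0.37 and 0.45. rbcL, for the large subunit of Rubisco, had 12.44, 13.30 and 13.17 in OE1, 12.28, 12.75 and 12.81 in OE2, 11.90, 13.02 and 12.85 in fls1-3, and 12.77, 12.78 and 13.06 in Col-0, with every pair of groups overlapping.

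The 4 genes of the plastid-encoded polymerase were above Col-0 in OE1, by 0.08 for rpoA, 0.15 for rpoB, 0.55 for rpoC1 and 0.64 for rpoC2, and 2 of the 4 were above Col-0 under each of the 3 other scalings. rpoC1 had 11.74, 12.22 and 11.80 in OE1, 11.50, 11.63 and 11.91 in OE2, 11.48, 11.84 and 11.87 in fls1-3, and 11.25, 11.42 and 11.43 in Col-0. In it all 9 arrays of the lines exceeded Col-0, by narrow margins in OE2 and fls1-3. The 7 genes with other roles also had higher means in OE1 than in Col-0, with a median of 0.39, and 7, 5 and 5 of them did so under quantile normalization, centring on array medians and centring on the plastid-encoded genes. Among them were accD (0.93), for a subunit of the acetyl-CoA carboxylase of fatty acid synthesis, ycf3 (0.84), for a protein that tobacco needs to assemble photosystem I, matK (0.52), for a maturase of introns, and clpP (0.39), for a protease subunit. In accD and ycf3 Col-0 replicate 1 read 9.15 and 9.82, below 10.56 and 11.26 in the next lowest Col-0 array, and without it their differences were 0.44 and 0.27. Without that array 6 of the 7 were above Col-0.

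Genes were also grouped by the polymerase that textbooks assign to them. The 10 genes read mainly by the plastid-encoded polymerase had a median OE1 minus Col-0 difference of -0.05, with 4 higher and 6 lower. The 4 read mainly by nuclear-encoded polymerases, accD and the operon of rpoB, rpoC1 and rpoC2, had a median of 0.60 and were all higher. Without Col-0 replicate 1, rpoB turned to -0.06 and accD fell to 0.44, while rpoC1 and rpoC2 stayed at 0.50 and 0.57. The 9 genes with introns had a median of 0.41, against 0.20 for the 60 without. These lists overlap with the classes above, and in OE1 minus Col-0 none of their members was called, where 0% of all probe sets were. The medians of these lists were not computed under the other scalings. The 7 measured genes of the large ribosomal protein operon, which ends in rpoA, were all higher in OE1, from 0.08 for rpoA to 0.71 for rpl16.

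The comparisons of OE2 and fls1-3 with Col-0 gave less. In OE2, 0 of the 69 genes were called by limma where 0.989% of all probe sets were, and 1 had an unadjusted p under 0.05 (background 11.3%). The median difference was -0.01 with 34 higher and 35 lower, but this split depended on the scaling: 15 were higher and 54 lower with arrays centred on their medians (median -0.17), and 46 higher and 23 lower with arrays centred on the plastid-encoded genes (median 0.14). In fls1-3, 0 were called where 1.2% of all probe sets were, and 2 had an unadjusted p under 0.05 (background 10.2%). These 2 were petL and rpl14, and rpl14, for a protein of the large ribosomal subunit, was at -0.43. The fls1-3 median was -0.09 with 24 higher and 45 lower, and 22 and 47 with arrays centred on their medians, but 47 and 22 with arrays centred on the plastid-encoded genes (median 0.04). Since centring on these genes removes a shift that most of them share, its counts do not bear on such a shift. Groups stood apart from Col-0 for 2 genes above and 4 below in OE2 (background 10.6% and 7.98%), and for 2 above and 3 below in fls1-3 (background 6.75% and 5.89%).

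OE1 minus OE2 compared the lines with opposite flavonol labels. Here 1 of the 69 genes, psaC, was called, where 0.0264% of all probe sets were. The unadjusted p was under 0.05 for 13 (background 8.43%), the median was 0.25 with 57 higher and 12 lower, and OE1 lay wholly above OE2 for 20 genes (background 9.54%) and wholly below it for 1, psaA (background 8.87%). Between fls1-3 and OE2, which share a label, 0 of the 69 were called by limma (background 0.022%) and 1, psaC, had an unadjusted p under 0.05 (background 5.44%). There fls1-3 lay wholly above OE2 for 1 gene and wholly below it for 8 (background 5.63% and 6.96%). OE1 exceeded all arrays of the 3 other genotypes in 13 of the 69 genes, 9 of them ribosomal, and was below all of them in 0. The shares of all probe sets were 1.93% and 1.2%. For the higher side it was 3.06% of the 4894 probe sets at or above the lower quartile of these genes' mean signals. That set shares only this lower limit with the 69 genes, and psaC, rps15 and rps16 lie below it. The 13 were psaC, atpH, atpB, accD, rps2, rps3, rps15, rps16, rps18, rpl14, rpl16, rpl20 and rpl36. In rpl36, accD and atpB the margin was very narrow. Their lowest OE1 signals were 13.0902, 10.7868 and 15.0621, against 13.0898, 10.7809 and 15.055 in the highest other array.

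The OE1 arrays also differed in a measure of RNA and labelling. The control probe sets for the 3′ and 5′ ends of the GAPDH transcript differed by 2.27 ± 0.17 on the log2 scale in OE1, against 1.42 ± 0.25 in OE2, 1.27 ± 0.39 in fls1-3 and 1.304 ± 0.10 in Col-0 (SD, n = 3 each). In 4 of 6 such control pairs every OE1 array exceeded all others. Since this holds for the whole of OE1, its part in the OE1 differences and that of the line cannot be told apart. The control for 25S rRNA ranged from 12.2 to 13.4 over the 12 arrays.

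Within genotypes, the plastid-encoded genes moved together from array to array. In OE1, replicate 2 gave the highest of the 3 signals for 63 of the 69 genes (91.3%), and replicate 1 the lowest for 55. The first share was 44.9% for the probe sets at least as strong as the lower quartile of these genes. In fls1-3, replicate 3 was highest for 60 (87.0%, against 40.6%) and replicate 1 lowest for 59. OE2 and Col-0 were more even, with replicates 1, 2 and 3 highest for 29, 15 and 25 genes in OE2 and for 13, 30 and 26 in Col-0. The lowest signal in Col-0 came from replicates 1, 2 and 3 for 39, 7 and 23 genes. Replicate 1 was thus lowest for 56.5% of them, against 42.1% of the probe sets above that quartile, and for 11 of the 15 ribosomal genes. OE1 replicate 2 and fls1-3 replicate 3 were each highest in 15 of 15 photosystem II genes and 10 of 10 NDH genes, but in 11 and 10 of 15 ribosomal genes. The median residual SD was 0.23 for the ribosomal genes, 0.30 for photosystem II and 0.39 for NDH.

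**Figure D5:**
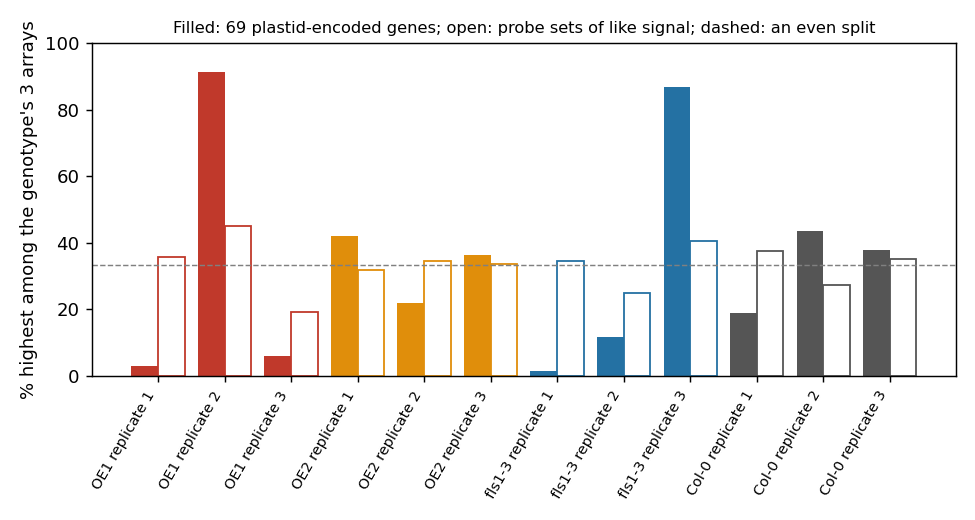
Share of genes (vertical axis, percent) for which an array was the highest of the 3 arrays of its genotype. Filled bars are the 69 plastid-encoded genes, and the dashed line is an even split. Open bars, titled as of like signal, are the 4894 probe sets at or above the lower quartile of these genes' mean signals. OE1 replicate 2 (91.3%) and fls1-3 replicate 3 (87.0%) stand far above their open bars.

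Some medians depended on single arrays. Without OE1 replicate 2 the OE1 minus Col-0 median over the 69 genes was 0.07 in place of 0.23, and photosystem II had 2 genes higher and 13 lower (median -0.24). Without Col-0 replicate 1 the median over the 69 genes was 0.14. Without fls1-3 replicate 1 the fls1-3 minus Col-0 median turned to 0.07, with 42 genes higher and 27 lower, and without fls1-3 replicate 3 it was -0.23. The fls1-3 minus OE1 median was -0.27 with all arrays, -0.13 without OE1 replicate 2 and -0.06 without fls1-3 replicate 1, while the ribosomal genes kept 14 of 15 lower in each of these fits.

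Nuclear genes for the same complexes shared the array pattern within OE1 and fls1-3. Of 43 listed nuclear genes for photosystem subunits and antenna proteins, 7 had a probe set that names them alone: PSAE-1, PSAN, PSBW, PSBY, LHCB4.1, LHCB4.2 and LHCB4.3. All 7 were highest in OE1 replicate 2 within OE1 and in fls1-3 replicate 3 within fls1-3, and lowest in replicate 1 of both. In OE1 minus Col-0, 2 were higher and 5 lower (median -0.05), in OE1 minus OE2 all 7 were higher (median 0.14), and in fls1-3 minus OE1 all 7 were lower (median -0.23), with 0 called in each. The 5 further nuclear subunits measured, of 16 listed, had medians of -0.18 in OE1 minus Col-0, 0.14 in OE1 minus OE2 and -0.05 in fls1-3 minus OE1. The nuclear genes CRR21, CRR22 and CAF1, the first pair for editing of plastid RNA and the third for its splicing, which were the 3 measured of 29 listed, were all higher in OE1 than in Col-0 (median 0.30) and all lower in fls1-3 than in OE1 (median -0.72), with 0 called. The 11 mitochondrion-encoded genes had a median of -0.07 in OE1 minus Col-0 with 5 higher and 6 lower, of 0.40 in OE1 minus OE2 with 8 higher and 3 lower, and of -0.13 in fls1-3 minus OE1 with 4 higher and 7 lower. None of them was called, and in OE1 minus OE2 their median exceeded the 0.25 of the plastid-encoded genes. The mitochondrial genes leaned towards the same arrays, with 7 of 11 highest in OE1 replicate 2 and 8 of 11 in fls1-3 replicate 3. Replicate 1 was lowest for 4 of them in OE1 and for 4 in fls1-3. The mitochondrial probe sets were much weaker, with group means from 1.16 for matR to 8.77 for nad4, against a median signal of 11.7 for the plastid-encoded genes. Except for cox1, nad1, nad4 and nad9, all their group means lay under the lowest array median, 7.09.

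The 8 probe sets that name both copies of an inverted-repeat gene were all higher in OE1 than in Col-0. The differences were 0.83 and 0.64 for the 2 rps12 probe sets, 0.31 for rpl2, 0.39 for rpl23, 0.63 for rps7, 0.69 for ycf1, 1.55 for ycf2 and 0.35 for ndhB. None was called. Of the genes, rps12, rpl2, rpl23 and rps7 encode ribosomal proteins, so 5 probe sets outside the 15 genes had this direction in OE1, as had ycf1, ycf2 and ndhB. All 8 were also higher in OE2 than in Col-0, from 0.04 for rpl2 to 0.95 for ycf2. In fls1-3 the differences ranged from -0.15 for rps7 to 0.86 for ycf2. The 3 lines share the Col-0 arrays. Of all probe sets tested, 13233 of 22746 were higher in OE1 than in Col-0. Differences of the 8 probe sets under the other scalings or without Col-0 replicate 1 were not computed.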

How the data were processed

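Total RNA of rosette leaves (6 µg per sample) was labelled and hybridised to 1 Affymetrix array per sample. The deposited log2 values are MAS5 signals, per the submitters' processing notes, which give no version. From the values, the authors' scaling had set the 2% trimmed mean of every array to about 500.05, with a floor of 0. Detection calls were not used here.

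From these values, 22746 probe sets without the 64 controls entered 1 fit in limma 3.58.1 (R 4.3.3), with 1 coefficient for each of 4 genotypes (12 arrays, 8 residual degrees of freedom) and an intensity trend. Two-sided p-values were adjusted by Benjamini-Hochberg over all probe sets of a comparison, with a threshold of 0.05. The fit was tested on simulated data.

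Gene names come from the platform annotation, and chromosomes and gene order from the TAIR10.1 reference table. Of the probe sets, 13513 name 1 gene, 503 several and 8730 none. Named in full were called genes, otherwise the 5 of smallest p per comparison, and extremes of a class. The members and lists were chosen with earlier results of these data known. Alternatives covered scaling, pseudocounts, filters, arrays in the fit, moderation, array weights, a replicate block and leaving out arrays. The number of arrays limits the precision.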

Additional observations from a re-analysis of the deposited data

How the results depend on the processing

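The comparisons of OE2 with Col-0 and of fls1-3 with OE2 kept a count of 0 called plastid-encoded genes in all 12 alternatives that used every array and in all 12 that left 1 array out. Centring arrays on their medians gave 0 called genes in OE1 minus OE2 and 1 in fls1-3 minus OE1 (1 and 2 as reported), and so did dropping the intensity trend. Adding 16 or 64 to the linear signal gave 1, psaC, in OE1 minus Col-0. Leaving out probe sets below the 40th percentile gave 5 in fls1-3 minus OE1. Fits on only the groups compared gave 2 in OE1 minus OE2 and 1 in fls1-3 minus OE1. Array weights gave 1 in OE1 minus Col-0, 1 (petL) in fls1-3 minus Col-0, 6 in OE1 minus OE2, 18 in fls1-3 minus OE1 and 14 for any difference between genotypes, reported as 1. With arrays centred on the plastid-encoded genes, their median was -0.0997 in OE1 minus OE2 and 0.0462 in fls1-3 minus OE1. That centring sets the median of these genes to 0 on every array, so medians near 0 follow from it. Why the other values moved was not tested.

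Leaving out each array in turn gave 1 to 4 called genes for any difference, 1 to 8 in fls1-3 minus OE1 (the 8 without Col-0 replicate 1; leaving out Col-0 replicate 3 gave 4), 0 to 1 in OE1 minus Col-0 and in OE1 minus OE2, and 0 to 0 elsewhere. The medians ranged from 0.07 to 0.31 in OE1 minus Col-0, from -0.09 to 0.04 in OE2 minus Col-0, from -0.23 to 0.07 in fls1-3 minus Col-0, from 0.10 to 0.36 in OE1 minus OE2, from -0.42 to -0.06 in fls1-3 minus OE1 and from -0.16 to 0.13 in fls1-3 minus OE2.

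With the replicate number as a block, 2 genes (atpH and psaC) were called for any difference, and no other count moved. The numbers did not pair the arrays: of 18 same-numbered pairs 5 had a correlation of deviations over 0.1 (range -0.72 to 0.75), and 4 of 12 arrays correlated best with their own number. Averaging a gene's probe sets was not run, since each gene has 1. The class counts under other scalings and the values of single genes and classes without single arrays were chosen after seeing the data.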
